A study of Rattus norvegicus with 18 samples.

Results

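The drug-metabolising cytochrome P450 genes of families 1 to 3 were described in the livers of adult male Sprague Dawley rats after 8 weeks on 1 of 3 diets. Their members were the probe sets with a single gene symbol beginning with Cyp1, Cyp2 or Cyp3 directly followed by a letter, with the brightest probe set kept for each gene. This gave 32 genes of the 14217 measured: 2 Cyp1a genes, 1 Cyp1b gene, 3 Cyp2a, 3 Cyp2b, 7 Cyp2c, 3 Cyp2d, 1 Cyp2e, 1 Cyp2f, 1 Cyp2g, 3 Cyp2j, 1 Cyp2s, 1 Cyp2t, 1 Cyp2u and 4 Cyp3a genes. Measured values did not choose the members, except that brightness decided between probe sets of Cyp2d4 and Cyp2j3, the only members with more than 1. The chow group was fed standard chow and its tissue is labelled normal. The HFD group was fed a high fat diet, and its tissue is labelled fatty. The HFD+PE group received that diet plus an extract of pomegranate skin (150 mg/kg/d), and its tissue is labelled normal. All animals were fasted overnight before the liver was taken, the labels name no genetic change, and no group received the extract on chow. RNA was hybridised to Affymetrix arrays, 6 per group and 18 in all. The labels present every array as a biological replicate. Chow arrays 3 and 4, HFD arrays 1 and 2, and HFD+PE arrays 3 and 4 had 0 probe sets more than 2 log2 units apart, whereas each of the remaining 150 pairs had between 18 and 109. By that rule each of these 3 pairs was averaged to stand for a single animal, so n is 5 in every group. This is an inference from the values, and other measures single out the HFD pair more than the others. The SD of the difference over probe sets was 0.117 in the HFD pair, 0.215 in the chow pair and 0.26 in the HFD+PE pair, against 0.26 in the lowest other pair. Equal values made up 42.9%, 20.2% and 18.1% of probe sets in the same order, against 20.9% in the highest other pair. The arrays of the chow pair and of the HFD+PE pair fall in different control sets (described below), and those of the HFD pair in the same one. The part of the control set in these measures was not tested. Results that turn on the averaging are given both ways.

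Cytochrome P450 enzymes are haem proteins of the endoplasmic reticulum that take electrons from NADPH through P450 reductase and put an oxygen atom into drugs, environmental chemicals, steroids and fatty acids. Families 1 to 3 carry most of the liver's drug metabolism. Their genes are under the control of ligand-activated receptors: AhR for the Cyp1 family, CAR for Cyp2b and PXR for Cyp3a. In rats several of them also differ between the sexes through the pattern of growth hormone release, and many are strongest in the hepatocytes around the central vein.

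Of the members, 18 lie on rat chromosome 1, 4 on chromosome 12, 3 each on chromosomes 5 and 7, 2 on chromosome 8 and 1 each on chromosomes 2 and 6, by the RefSeq gene table for rat. Cyp1a1 and Cyp1a2 are direct neighbours, as are Cyp2a3, Cyp2a1 and Cyp2a2 in that order, Cyp2f4 and Cyp2t1, and Cyp3a2 and Cyp3a23-3a1. RefSeq promoter windows on GRCr8 were matched for 29 of the 32 members, with none available for Cyp1a1, Cyp2a2 and Cyp2c6v1. The 250 bases before the start are shown for Cyp1a2, which stood out in a single animal together with its neighbour, and for Cyp2e1 and Cyp2a1, the only members with an unadjusted limma p under 0.05 in both comparisons with chow. Capitals mark TATAAA and CCAAT on either strand (CCAAT on the opposite strand reads ATTGG), and each sequence runs 5′ to 3′ on the gene's strand.

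Cyp1a2, chr8:66978150-66978399, minus strand: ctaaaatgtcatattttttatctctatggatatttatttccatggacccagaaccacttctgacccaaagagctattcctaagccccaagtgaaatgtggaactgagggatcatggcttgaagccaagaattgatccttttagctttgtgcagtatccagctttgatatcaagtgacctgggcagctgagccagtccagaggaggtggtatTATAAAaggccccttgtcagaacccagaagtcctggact
Cyp2e1, chr1:205269717-205269966, plus strand: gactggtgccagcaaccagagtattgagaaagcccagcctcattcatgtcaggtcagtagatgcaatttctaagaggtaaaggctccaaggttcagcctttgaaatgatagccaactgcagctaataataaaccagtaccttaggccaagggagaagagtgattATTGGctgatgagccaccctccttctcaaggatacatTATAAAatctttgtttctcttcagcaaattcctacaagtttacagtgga
Cyp2a1, chr1:91359028-91359277, plus strand: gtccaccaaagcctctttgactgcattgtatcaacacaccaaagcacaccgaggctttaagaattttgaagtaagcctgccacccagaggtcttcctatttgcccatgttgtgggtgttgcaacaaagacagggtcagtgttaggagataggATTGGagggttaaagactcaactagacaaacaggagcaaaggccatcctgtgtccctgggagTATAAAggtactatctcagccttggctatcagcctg

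In these windows TATAAA began 39 bases before the start of Cyp1a2, 49 before that of Cyp2e1 and 36 before that of Cyp2a1. TATAAA, searched on both strands, was present in 10 of the 29 members' windows (34.5%) and in 12.9% of all 33469 windows of this length. CCAAT was present in 13 of the 29 (44.8%), against 34.0% of all windows. TNGCGTG, the core letters of the element that AhR binds, was present in 1 of the 29 (3.45%), Cyp1b1, against 4.09% of all windows. Cyp1a1 had no window and was not searched. These matches are descriptions of letters and not binding sites, and a window without a match says only that the letters are not in these 250 bases.

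Levels are log2 signals after robust multi-array averaging (RMA), which the authors rounded to 0.1, so a difference of 1 is 2-fold. Of the members, 23 lay at or above the median level of all genes (6.61) and 9 below it: Cyp1a1, Cyp1b1, Cyp2a3, Cyp2b12, Cyp2b21, Cyp2g1, Cyp2j10, Cyp2s1 and Cyp2u1. Probe sets differ in brightness for reasons other than transcript number, so levels were not compared between genes. Within groups the members' median SD was 0.20, against 0.17 for all genes.

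With n = 5 in each group, 0 members and 0 other genes passed adjustment over all genes in limma. With the 18 arrays taken singly, or with only HFD 1 and 2 averaged, Cyp2e1 passed in HFD+PE against chow. On the 18 arrays with same-numbered arrays as a block, Cyp2e1 and Cyp2f4 passed in that comparison (values below). How many of all genes passed in these alternative settings is not given here, so these passes do not set the members apart. In HFD against chow, 0 of 32 members had a Benjamini-Hochberg adjusted limma p under 0.05, and so did 0.0% of all genes. The smallest adjusted p of a member was 0.569 and of any gene 0.315. Before adjustment, 3 of 32 members (9.38%) had a limma p under 0.05, against 7.65% of all genes: Cyp2a1 and Cyp2e1 were higher (6.25% of the members, against 4.08% of all genes) and Cyp3a9 was lower (3.12%, against 3.57%). The members' median difference was 0.03, against 0.00 for all genes, with 14 members at 0.05 or above and 6 at -0.05 or below.

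HFD+PE against HFD asks what the extract adds on the high fat diet. Here also 0 of 32 members and 0.0% of all genes passed adjustment in limma, with 0.993 as the smallest adjusted p in both. Before adjustment 1 of 32 (3.12%), Cyp2j4, had a limma p under 0.05, against 2.70% of all genes. It was higher, as were 1.64% of all genes, and 0 members were lower with such a p, against 1.06% of all genes. The median difference was -0.01 in the members and 0.00 in all genes, with 9 members at 0.05 or above and 13 at -0.05 or below.

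Between HFD+PE and chow, which differ in diet and extract, 0 of 32 members and 0.0% of all genes passed adjustment in limma. The smallest adjusted p was 0.108 in a member, Cyp2e1, and 0.104 in any gene. Before adjustment 6 of 32 members (18.8%) had a limma p under 0.05, against 11.1% of all genes. Cyp2a1, Cyp2a2, Cyp2e1, Cyp2f4 and Cyp2j4 were higher (15.6% of the members, against 6.0% of all genes), and Cyp2d4 was lower (3.12%, against 5.14%). The median difference was 0.035 in the members and 0.01 in all genes, with 15 members at 0.05 or above and 10 at -0.05 or below. The comparisons share their groups, so their counts are not independent of each other. In a limma F test for any difference between the 3 groups, 0 of 32 members and 0.0% of all genes passed adjustment, and 4 members (12.5%: Cyp2a1, Cyp2d4, Cyp2e1, Cyp2f4) had an unadjusted p under 0.05, against 8.14% of all genes.

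The precision varied among the members. For HFD against chow the 95% interval lay within 0.5 log2 units of 0 for 24 of 32 members (75.0%), against 86.1% of all genes. Between HFD+PE and HFD it did so for 21 (65.6%, against 89.9%), and in HFD+PE against chow for 22 (68.8%, against 84.4%). For these genes a change of 0.5 log2 units or more lies outside the interval. For Cyp1a1, Cyp1a2, Cyp2c12, Cyp2d4, Cyp2e1, Cyp2f4, Cyp3a9 and Cyp3a18 it lies inside in all 3 comparisons.

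**Figure D1:**
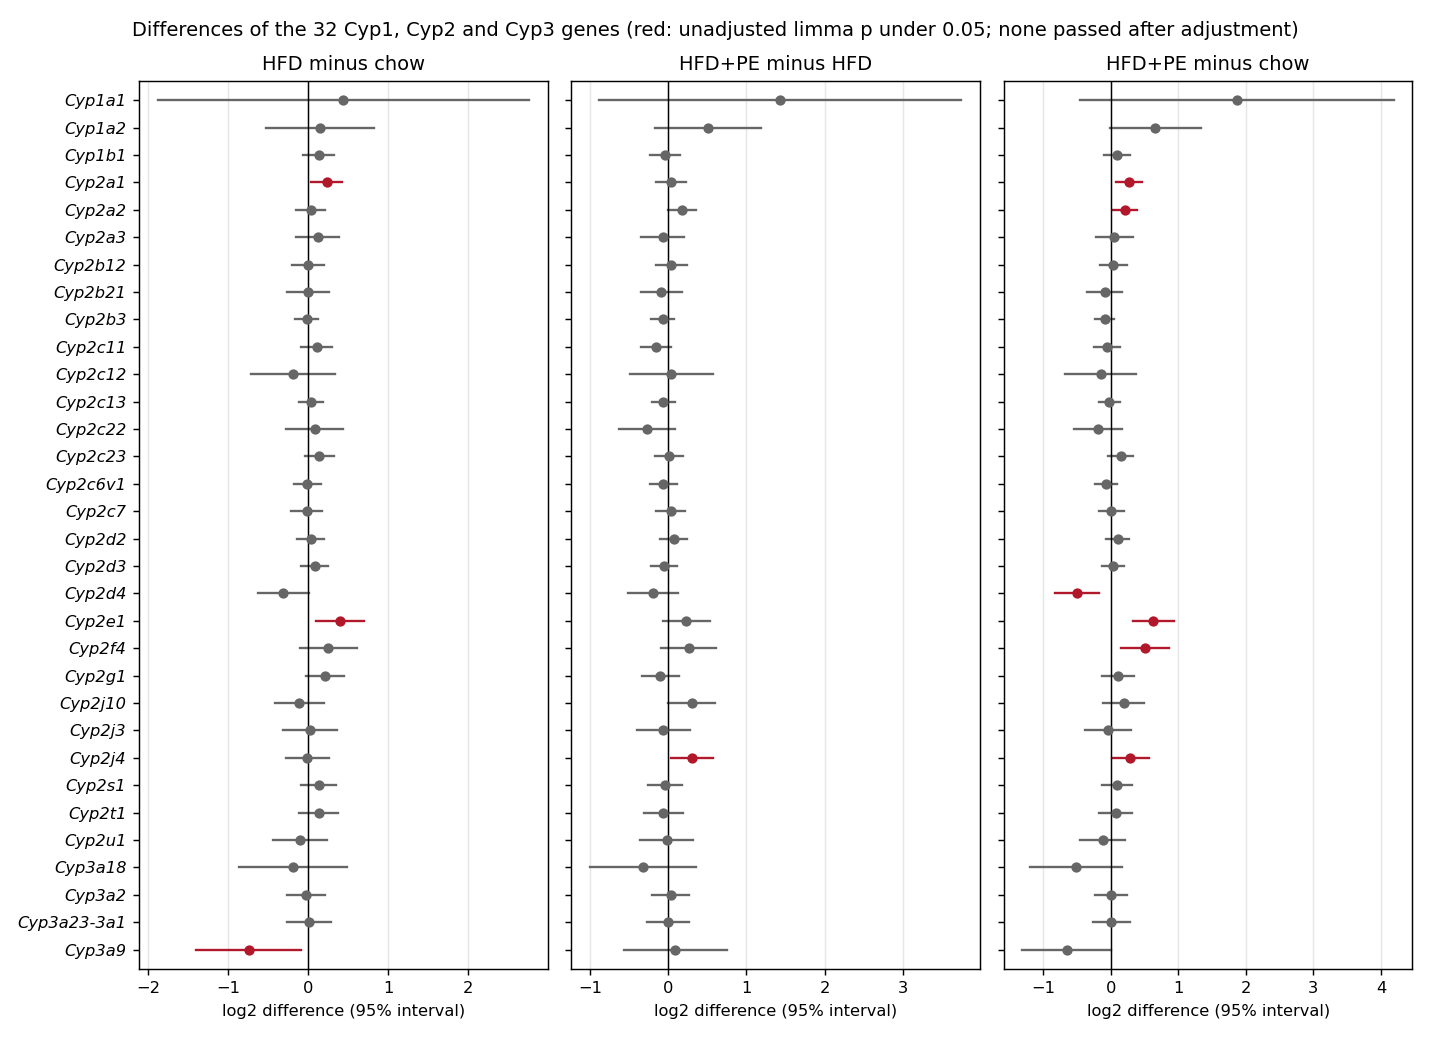
Difference in log2 signal for each of the 32 genes in HFD minus chow, HFD+PE minus HFD and HFD+PE minus chow, with points for the limma estimate, bars for the 95% interval and red for an unadjusted p under 0.05. Most points lie close to 0 with short bars, Cyp1a1 has the widest interval in each panel, and Cyp2e1 has the lowest p in HFD+PE minus chow (0.63).

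The Cyp1 family was set apart by a single animal. Cyp1a1, the classic AhR-induced enzyme that oxidises polycyclic aromatic hydrocarbons, had log2 signals of 5.0, 4.7, 4.90, 4.8 and 5.1 in the chow animals and 5.40, 5.4, 5.6, 5.1 and 5.2 in the HFD animals. In the HFD+PE animals it read 4.8, 13.0, 6.05, 5.2 and 4.8. The animal HFD+PE 2 thus stood 6.95 log2 units (124-fold) above the highest of the other 14 animals, the widest upward gap that any of the 14217 genes showed in that animal. The 6.05 is the mean of the averaged HFD+PE pair, whose arrays read 5.1 and 7.0, and against the highest other single array the gap was 6.0 (64.0-fold). Cyp1a2, a constitutive hepatic enzyme that metabolises caffeine and aromatic amines, read 11.5, 11.3, 11.55, 11.1 and 11.3 in chow and 11.50, 11.7, 11.7, 11.3 and 11.3 in HFD. In HFD+PE it read 11.9, 13.7, 11.35, 11.8 and 11.3, and the high value was again HFD+PE 2, 1.80 log2 units (3.48-fold) above all others and the second widest upward gap in that animal. The other HFD+PE animals, from 11.3 to 11.9, overlapped with both control groups.

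The means of the Cyp1a genes in HFD+PE rest on that animal. Cyp1a1 averaged 4.90 ± 0.16 in chow, 5.34 ± 0.19 in HFD and 6.77 ± 3.52 in HFD+PE (SD, n = 5 each). The difference of HFD+PE from HFD was 1.43 (SE 1.10; limma adjusted p = 0.993), and without HFD+PE 2 it was -0.13. The difference from chow was 1.87 (SE 1.10, limma unadjusted p = 0.107), with an exact permutation p of 0.206. Cyp1a2 averaged 11.35 ± 0.18, 11.50 ± 0.20 and 12.01 ± 0.98, with a difference of HFD+PE from chow of 0.66 (SE 0.32, limma unadjusted p = 0.0556).

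Other AhR targets of HFD+PE 2 lay within the range of the other 14 animals, with Nqo1 at its upper end. Cyp1b1, which hydroxylates oestradiol and is also under AhR control, read 4.8 in that animal, against 4.6 to 5.2 in the other 14. Of the other AhR targets measured, Nqo1 (a quinone reductase) read 9.3, the same as the highest of the others (6.6 to 9.3), Tiparp (an AhR-induced ADP-ribosyltransferase) 7.8 against 7.6 to 8.2, and Aldh3a1 (an aldehyde dehydrogenase) 4.4 against 4.2 to 4.6. For Nqo1 the other reading of 9.3 was from a chow animal, and the other animals on the high fat diet read 6.6 to 8.1. The repressor Ahrr (3.4 against 3.1 to 3.8) and Ahr itself (4.9 against 4.2 to 6.0) were likewise inside the range of the others. Cyp1b1, Aldh3a1, Ahrr and Ahr all lay below the median level of all genes (6.61). Alas1, the first enzyme of haem synthesis, had the fifth widest upward gap of all genes in that animal, at 10.7 against 9.1 to 10.05.

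Between HFD and chow the Cyp1a1 values (5.1 to 5.6 and 4.7 to 5.1) met at 5.1, a difference of 0.44. With the control set described below as a covariate it was -0.06. That covariate was fitted over all 3 groups, so its value includes HFD+PE 2, an array of the low set at 13.0. Chow arrays read 5.0, 4.7 and 5.0 in the high set and 4.8, 4.8 and 5.1 in the low set. All HFD arrays are of the low set. In HFD+PE, on the same diet, 2 animals read 4.8, inside the chow range. The exact permutation p was 0.0159, or 0.33 after adjustment over 48 such tests. In limma, whose spread for this gene includes HFD+PE 2, the unadjusted p was 0.694, and without HFD+PE 2 it was 0.0349 (adjusted p = 0.636). Within the HFD+PE pair counted as 1 animal, Cyp1a1 showed the largest difference of any probe set between those arrays (1.9, followed by 1.4).

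**Figure D2:**
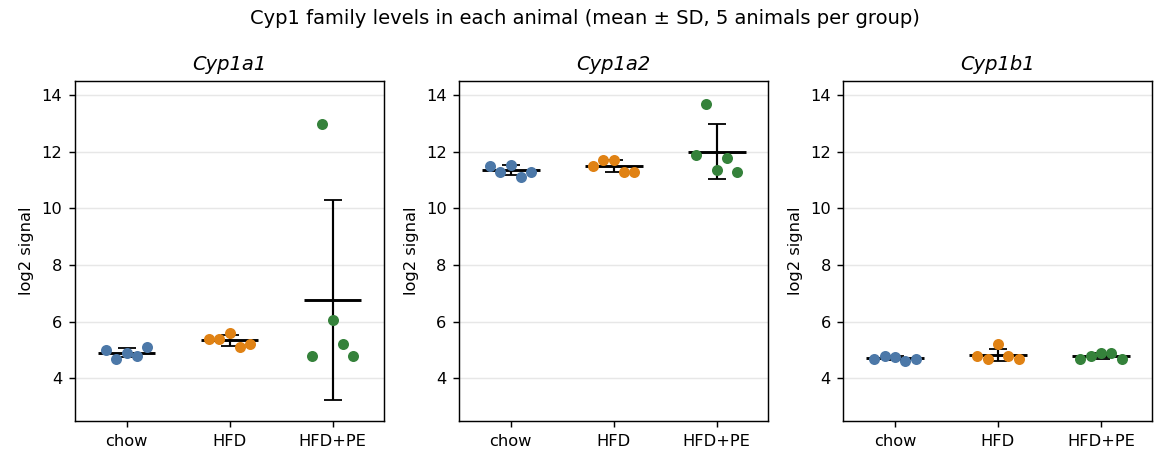
Log2 signal of Cyp1a1, Cyp1a2 and Cyp1b1 in each animal of the chow, HFD and HFD+PE groups, with bars for the mean ± SD of 5 animals. A single HFD+PE animal reads 13.0 for Cyp1a1 and 13.7 for Cyp1a2, far above the other animals, while its Cyp1b1 lies among them.

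Cyp2e1, which oxidises ethanol, acetone and other small molecules and is strongest around the central vein, was the member with the lowest p. It read 13.0, 12.4, 13.10, 13.2 and 12.9 in chow, 13.00, 13.3, 13.7, 13.3 and 13.3 in HFD, and 13.6, 13.5, 13.35, 13.7 and 13.6 in HFD+PE. All 5 HFD+PE animals were above all 5 chow animals, and Cyp2e1 was the only member of which this was true in any comparison (1 of 32, 3.12%, against 0.682% of all genes, with 0 members and 0.732% of all genes wholly lower), while HFD overlapped with both. For HFD+PE against HFD, 0 members were wholly apart, against 0.0774% of all genes higher and 0.0563% lower, and for HFD against chow 0 members, against 0.309% and 0.211%. The means were 12.92 ± 0.31, 13.32 ± 0.25 and 13.55 ± 0.13 (SD, n = 5 each).

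Cyp2e1 was 0.63 higher in HFD+PE than in chow (SE 0.14, 95% interval 0.33 to 0.93, 1.55-fold; limma adjusted p = 0.108). The exact permutation p was 0.00794, the smallest that 5 against 5 animals can give, and 0.33 after adjustment over 48 tests. In HFD it was 0.40 above chow (limma adjusted p = 0.569), and 0.27 to 0.48 when animals were left out in turn, with 0.27 without chow 2. HFD+PE was 0.23 above HFD, with an interval from -0.07 to 0.53. On the 18 arrays taken singly, HFD+PE against chow gave 0.57 with a limma adjusted p of 0.0365, and with only HFD 1 and 2 averaged, a setting chosen after seeing the data, 0.57 with a limma adjusted p of 0.0408. With arrays of the low control set only (described below) it was 0.46, with a limma adjusted p of 0.415.

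Cyp2a1 and Cyp2a2 are testosterone hydroxylases of the rat liver. Cyp2a1, which predominates in females, read 10.3, 10.2, 10.55, 10.6 and 10.3 in chow, 10.50, 10.6, 10.5, 10.8 and 10.7 in HFD and 10.6, 10.8, 10.60, 10.6 and 10.7 in HFD+PE. The highest chow animal equalled the lowest HFD+PE animals at 10.6. It was 0.23 higher in HFD than in chow (SE 0.09; limma adjusted p = 0.577) and 0.27 higher in HFD+PE than in chow (limma adjusted p = 0.257), with 0.04 between HFD+PE and HFD. Its neighbour Cyp2a2, which predominates in males, read 12.7, 12.8, 12.65, 12.8 and 12.7 in chow, 12.70, 12.8, 12.7, 12.9 and 12.7 in HFD and 12.8, 12.7, 13.10, 13.1 and 13.0 in HFD+PE. The 3 highest HFD+PE animals were above all others, and the other 2 were inside the chow range, for a difference of 0.21 from chow (limma adjusted p = 0.361) and 0.18 from HFD. Cyp2a3, known mainly from lung and nose, was dim (4.08 to 4.20 in group means) and differed by at most 0.12 between groups. A further Cyp2a probe set that names 2 genes averaged 12.30 ± 0.10, 12.34 ± 0.11 and 12.48 ± 0.13 in chow, HFD and HFD+PE.

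The Cyp2b subfamily is best known for genes that answer phenobarbital through CAR. The 3 Cyp2b genes among the members, 1 constitutive and 2 dim, differed little. Cyp2b3, the bright constitutive member, read 13.0, 13.0, 13.00, 13.1 and 12.9 in chow, 13.00, 13.0, 12.9, 12.9 and 13.1 in HFD and 12.9, 13.0, 12.95, 12.8 and 12.9 in HFD+PE. The groups overlapped, with differences of -0.02 between HFD and chow, -0.07 between HFD+PE and HFD and -0.09 between HFD+PE and chow. Cyp2b12 and Cyp2b21 were dim and differed by 0.09 at most. A probe set that names 2 Cyp2b genes, and so lies outside the members, averaged 9.08 ± 0.16 in chow, 8.70 ± 0.43 in HFD and 8.73 ± 0.39 in HFD+PE, with the groups overlapping.

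The 7 Cyp2c genes, which include the main sex-dependent P450 enzymes of the rat, differed by at most 0.27 between groups. Cyp2c7, the brightest, read 13.8, 13.9, 13.85, 14.0 and 13.7 in chow, 13.65, 13.7, 14.0, 13.8 and 14.0 in HFD and 13.7, 13.9, 13.80, 14.0 and 13.9 in HFD+PE, and the groups overlapped throughout. Cyp2c11, the principal male-specific P450, averaged 13.29 ± 0.19, 13.40 ± 0.07 and 13.24 ± 0.11, with HFD+PE 0.16 below HFD (95% interval -0.35 to 0.03). Cyp2c12, the female-specific counterpart, averaged 9.07 ± 0.30, 8.88 ± 0.46 and 8.92 ± 0.56, and the male-predominant Cyp2c13 averaged 13.44 ± 0.09, 13.48 ± 0.08 and 13.42 ± 0.08. Cyp2c23, an arachidonic acid epoxygenase, was 0.14 higher in HFD and 0.15 higher in HFD+PE than in chow. Cyp2c6v1 differed by 0.07 at most, and Cyp2c22 was 0.27 lower in HFD+PE than in HFD, with an interval from -0.63 to 0.09.

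Cyp2d4, a Cyp2d enzyme also known from the brain, was the member with the lowest p among those lower in HFD+PE. It read 9.7, 8.9, 9.50, 9.2 and 9.3 in chow, 9.15, 9.1, 8.8, 9.1 and 8.9 in HFD and 9.1, 9.1, 8.90, 8.5 and 8.5 in HFD+PE. The animal chow 2 lay inside the range of both other groups, and the other chow animals lay above every HFD and HFD+PE animal. Cyp2d4 was 0.50 lower in HFD+PE than in chow (SE 0.15, limma adjusted p = 0.222) and 0.31 lower in HFD than in chow (limma adjusted p = 0.664). Its second probe set also was lower, by 0.20 in HFD+PE and 0.12 in HFD. Cyp2d2, the debrisoquine hydroxylase of rat liver, read 13.4, 13.1, 13.35, 13.2 and 13.2 in chow, 13.30, 13.4, 13.3, 13.3 and 13.1 in HFD and 13.3, 13.5, 13.35, 13.2 and 13.4 in HFD+PE. Its groups overlapped, with a difference of 0.10 between HFD+PE and chow, and Cyp2d3 differed by 0.08 at most.

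Cyp2f4, which oxidises naphthalene and is best known from the lung, read 9.7, 9.2, 9.65, 9.8 and 9.8 in chow, 9.60, 9.7, 10.1, 10.1 and 9.9 in HFD and 9.5, 10.1, 10.50, 10.3 and 10.3 in HFD+PE. All HFD+PE animals but HFD+PE 1 lay above every chow animal. HFD was 0.25 above chow, and 0.14 without chow 2. HFD+PE was 0.26 above HFD (0.17 to 0.42 when animals were left out in turn), and HFD+PE was 0.51 above chow (SE 0.17, 1.42-fold; limma adjusted p = 0.249). Its neighbour Cyp2t1 was 0.13 above chow in HFD and 0.07 above it in HFD+PE.

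The Cyp2j enzymes turn arachidonic acid into epoxides. Cyp2j4 read 9.4, 8.9, 9.45, 9.2 and 9.6 in chow, 9.40, 9.1, 9.4, 9.2 and 9.4 in HFD and 9.8, 9.8, 9.50, 9.3 and 9.6 in HFD+PE. All HFD+PE animals but HFD+PE 5 were above every HFD animal, a difference of 0.30 (SE 0.13, 1.23-fold; limma adjusted p = 0.993, exact permutation p = 0.0556). Cyp2j10, a dim member, was also 0.30 higher in HFD+PE than in HFD, at 5.3, 4.8, 4.90, 4.9 and 4.9 against 4.90, 4.8, 4.4, 4.6 and 4.6, with 4.9, 5.2, 4.75, 4.3 and 4.7 in chow. Its groups overlapped, and the highest value, 5.3, came from HFD+PE 1. Cyp2j3, which lies next to Cyp2j4, read 10.4, 9.9, 10.20, 10.2 and 10.3 in chow, 10.60, 10.0, 10.5, 10.1 and 9.9 in HFD and 10.5, 10.2, 10.00, 10.4 and 9.7 in HFD+PE. Its brightest probe set differed by -0.06 between HFD+PE and HFD and its second by -0.25. Among the single-gene subfamilies, Cyp2g1 (known from the nose), Cyp2s1 and Cyp2u1 (a fatty acid hydroxylase) differed by 0.21, 0.13 and 0.12 at most.

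**Figure D3:**
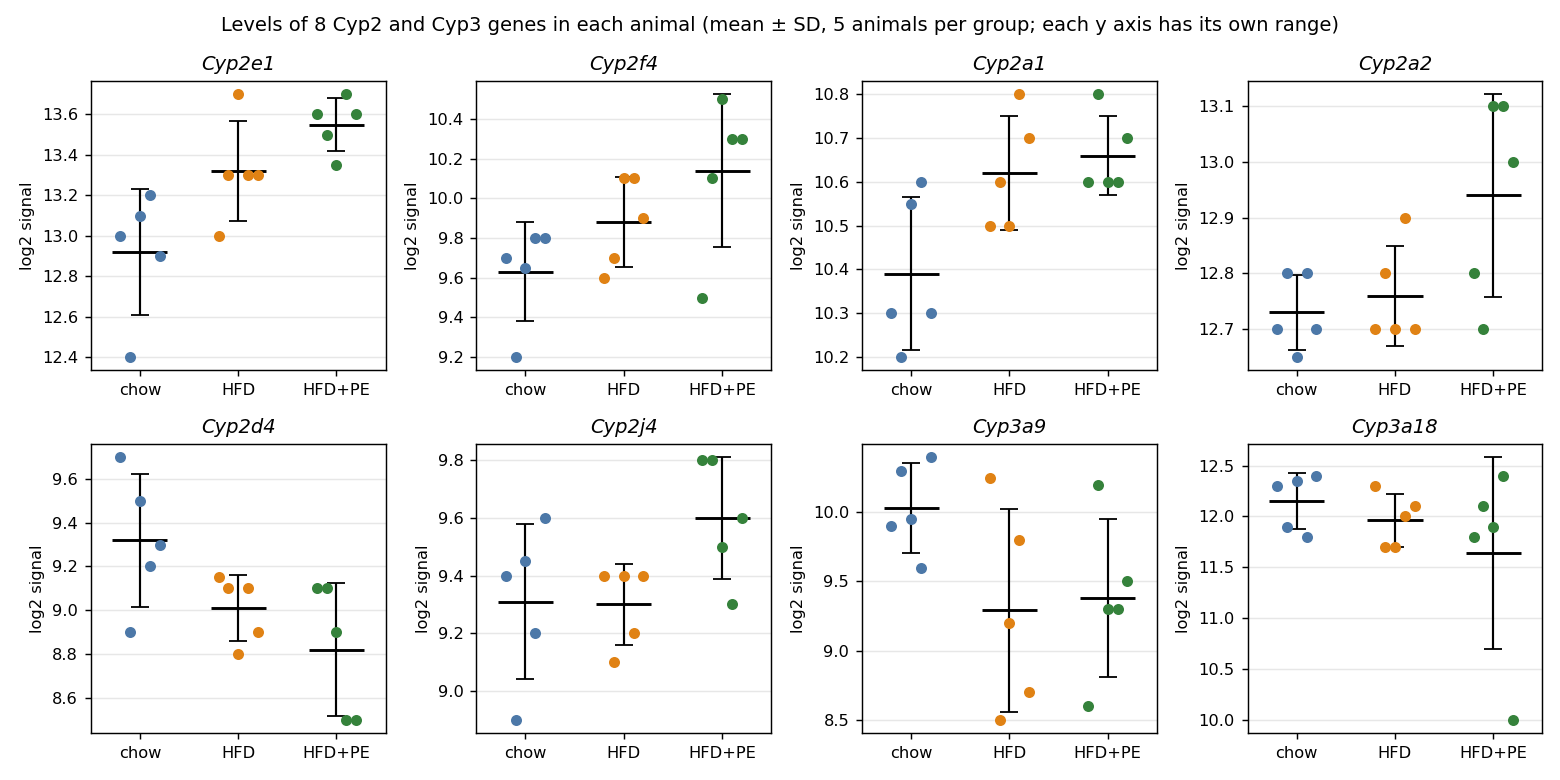
Log2 signal of 8 Cyp2 and Cyp3 genes in each animal, with bars for the mean ± SD of 5 animals; each panel has its own y axis. In Cyp2e1 all HFD+PE animals lie above all chow animals, while the chow and HFD+PE animals meet or overlap in the other panels, and in Cyp3a18 HFD+PE 6 lies apart at 10.0.

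The Cyp3a genes metabolise steroids and a large share of drugs, and Cyp3a23-3a1 is a typical PXR target. Cyp3a2, the main male-predominant member, read 13.7, 13.2, 13.60, 13.7 and 13.6 in chow, 13.65, 13.8, 13.5, 13.3 and 13.4 in HFD and 13.7, 13.5, 13.40, 13.7 and 13.5 in HFD+PE. It differed by -0.03, 0.03 and 0.00 in the 3 comparisons, with a 95% interval of -0.21 to 0.27 for HFD+PE against HFD. Its neighbour Cyp3a23-3a1 differed by 0.01, 0.00 and 0.01. Cyp3a9, which predominates in females, read 9.9, 10.3, 9.95, 9.6 and 10.4 in chow, 10.25, 8.5, 9.2, 9.8 and 8.7 in HFD and 8.6, 10.2, 9.30, 9.3 and 9.5 in HFD+PE. In both high fat groups 1 animal read above 10 and others read below every chow animal, and the SD was 0.32, 0.74 and 0.57. Cyp3a9 was 0.74 lower in HFD than in chow (SE 0.31, limma adjusted p = 0.614; exact permutation p = 0.0794) and 0.65 lower in HFD+PE than in chow. Cyp3a18, a male-predominant steroid hydroxylase, read 12.3, 11.9, 12.35, 11.8 and 12.4 in chow, 12.30, 11.7, 11.7, 12.0 and 12.1 in HFD and 11.8, 12.1, 11.90, 12.4 and 10.0 in HFD+PE. The animal HFD+PE 6 lay 1.70 below all others, the widest downward gap of any gene in that animal, and the remaining HFD+PE animals were inside the chow range. HFD+PE against HFD was -0.32 (SE 0.32), and 0.09 without HFD+PE 6.

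Averaged over its genes, each subfamily was compared as a description, with no test. Only Cyp1a moved by more than 0.3 among the subfamilies with more than 1 gene. Its mean difference was 0.29 for HFD against chow, 0.97 for HFD+PE against HFD and 1.26 for HFD+PE against chow, and without HFD+PE 2 the last of these was 0.28 and the second -0.02. The Cyp3a mean was 0.24 lower in HFD and 0.29 lower in HFD+PE than in chow. It rests on Cyp3a9 (-0.74 and -0.65) and Cyp3a18 (-0.19 and -0.51, the latter with HFD+PE 6 at 10.0). Cyp3a2 (-0.03 and 0.00) and Cyp3a23-3a1 (0.01 in both) hardly differed from chow. The Cyp2a mean was 0.13 higher in HFD and 0.18 higher in HFD+PE than in chow. Cyp2b, Cyp2c and Cyp2d means lay within 0.13 of 0 in all 3 comparisons, and the Cyp2j mean was 0.18 higher in HFD+PE than in HFD.

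**Figure D4:**
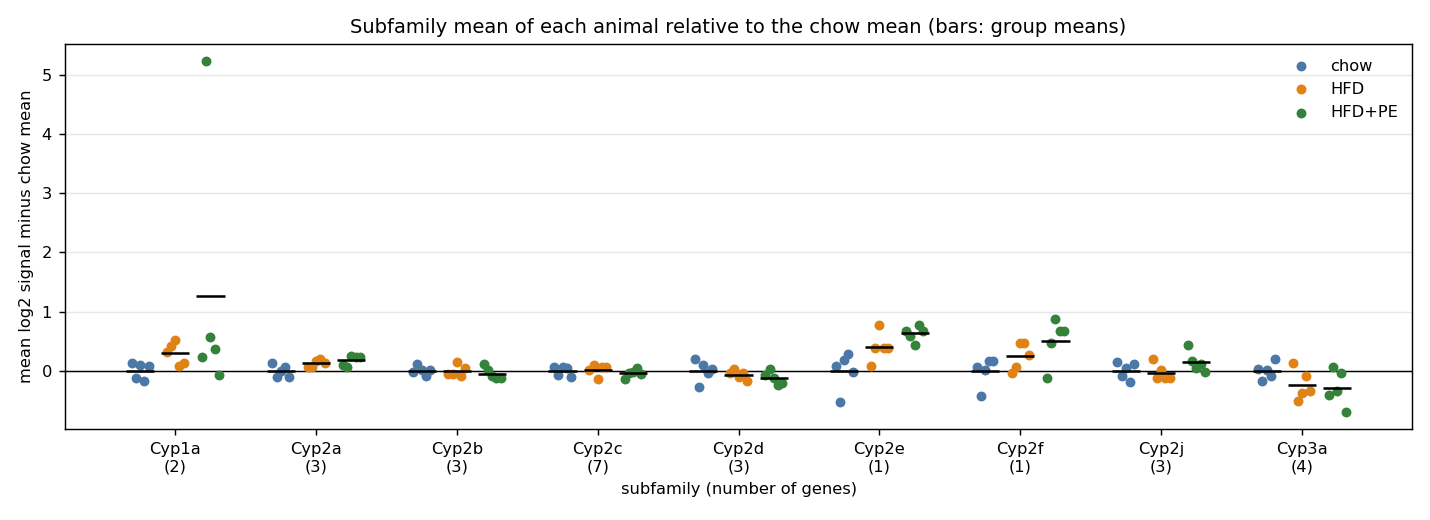
Mean log2 signal of each subfamily in each animal minus the chow mean of that subfamily, with short bars for group means and the number of genes in brackets. The Cyp1a mean of HFD+PE 2 is the only point far from the rest, at 5.22 above the chow mean.

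The regulators of these genes were read from a list of 22, of which 19 were measured. In HFD against chow 5 had an unadjusted limma p under 0.05, all higher, with a list median of 0.11. Of all genes, 7.65% had such a p, and 4.08% of all genes had such a p and were higher. The 5 regulators included the glucocorticoid receptor Nr3c1 (9.21 ± 0.11 in chow, 9.64 ± 0.15 in HFD, SD, n = 5) and the hepatocyte factor Cebpa (9.92 ± 0.13 and 10.44 ± 0.49). The others were the circadian factors Tef (0.65 higher) and Hlf (0.48 higher) and, outside the naming rule and chosen after its values were seen, Dbp (1.66 higher, SE 0.78). Nr3c1 (-0.39) and Cebpa (-0.43) were the 2 regulators with an unadjusted p under 0.05 in HFD+PE against HFD, both lower (2.70% of all genes had such a p, 1.06% lower), so that HFD+PE lay at 0.04 and 0.09 from chow. Against chow, Tef (0.60) and Hlf (0.55) were higher in HFD+PE. The receptors themselves were added after the values were seen: PXR (Nr1i2) differed by at most 0.16, CAR (Nr1i3) was 0.34 higher in HFD and 0.62 higher in HFD+PE than in chow (SE 0.39), and Ahr was 0.22 lower in HFD+PE than in chow (SE 0.36). No gene of this or the following lists passed adjustment in limma. Their counts of unadjusted p-values stand beside the shares of all genes with such a p, 7.65% for the diet, 2.70% for the extract on the diet and 11.1% for both against chow.

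Of 14 genes for electron donors and haem synthesis 13 were measured. Por, the P450 reductase, was 0.47 higher in HFD than in chow (SE 0.21) and 0.33 lower in HFD+PE than in HFD, and it was the only one of the list with an unadjusted limma p under 0.05 in HFD against chow. Against chow, the HFD+PE group had Alad, a haem synthesis enzyme, 0.26 higher and Ppox, a later enzyme of that pathway, 0.34 lower, both with an unadjusted limma p under 0.05. None had one in HFD+PE against HFD. The list medians were -0.01, 0.00 and 0.06 for the diet, the extract on the diet, and both against chow.

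Of 18 other targets of the same receptors 15 were measured, and the conjugating enzyme Ugt2b1 had the lowest p among them. It averaged 10.10 ± 0.76 in chow, 8.65 ± 0.79 in HFD and 8.63 ± 0.47 in HFD+PE (SD, n = 5), a difference of -1.45 between HFD and chow (SE 0.38, limma adjusted p = 0.453) and of -1.47 between HFD+PE and chow. Gadd45b, a stress and CAR-responsive gene, was 0.48 lower in HFD and 0.40 lower in HFD+PE than in chow. Between HFD+PE and HFD the export pump Abcc2 was 0.47 lower and the drug pump Abcb1a 0.57 higher. Each of these had an unadjusted limma p under 0.05, as had Abcb1a (0.60 higher) and Abcc3 (0.30 lower, named after its values were seen) in HFD+PE against chow. The list medians were 0.02, -0.03 and -0.02.

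Sex-dependent liver genes were read because 5 of the 8 measured male-predominant genes and 4 of the 7 female-predominant ones are members. The male list had 0 genes with an unadjusted limma p under 0.05 in HFD against chow and 1 in HFD+PE against HFD (Hsd3b5, a steroid dehydrogenase, 0.17 lower). For HFD+PE against chow it had 2, Obp3, a carrier protein, at 0.39 lower and Cyp2a2 at 0.21 higher. The female list had Cyp2a1 higher and Cyp3a9 lower in HFD against chow, 0 genes in HFD+PE against HFD, and Cyp2a1 higher in HFD+PE against chow. The medians were 0.00, -0.14 and -0.09 for the male list and 0.02, 0.03 and -0.03 for the female one.

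Cyp2e1 and Cyp1a2 belong to the genes known to be strongest around the central vein, and the 9 other measured genes of this pericentral list lay mostly above 0. Of those 9, 7 were above 0 in HFD against chow, 8 in HFD+PE against HFD and 8 in HFD+PE against chow, with medians of 0.13, 0.15 and 0.24, against 0.00, 0.00 and 0.01 for all genes. Aldh1a1, a retinaldehyde dehydrogenase, averaged 9.39 ± 0.87 in chow, 10.54 ± 0.59 in HFD and 11.16 ± 0.45 in HFD+PE (SD, n = 5), a difference of 1.77 from chow (SE 0.36). Glul, glutamine synthetase of the hepatocytes next to the vein, averaged 10.47 ± 0.11, 10.66 ± 0.24 and 10.85 ± 0.19. Between HFD+PE and chow 5 of the 11 pericentral genes, members included, had an unadjusted limma p under 0.05, all higher (11.1% of all genes had such a p, 6.0% higher): Aldh1a1, Cyp2e1, Glul, the dim Wnt target Lgr5 (0.38) and, outside the naming rule, the calcium-binding Rgn (0.24). In HFD against chow there were 4 (Aldh1a1, Cyp2e1, Lgr5 and Rgn; 7.65% of all genes, 4.08% higher), and in HFD+PE against HFD 0.

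The 8 genes of the periportal list, known to be strongest where blood enters the lobule, lay mostly below 0 in the comparisons with HFD+PE. Of these 7 were below 0 against HFD and 7 against chow, with medians of -0.14 and -0.20. The urea cycle enzyme Ass1 (0.43 lower) and the glutaminase Gls2 (0.34 lower) had an unadjusted limma p under 0.05 in HFD+PE against chow, and both also against HFD (0.37 and 0.25 lower). In HFD against chow none had one, and the median was -0.03. Both lists were drawn up from general knowledge with earlier results of these arrays known, and they were not tested as lists.

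**Figure D5:**
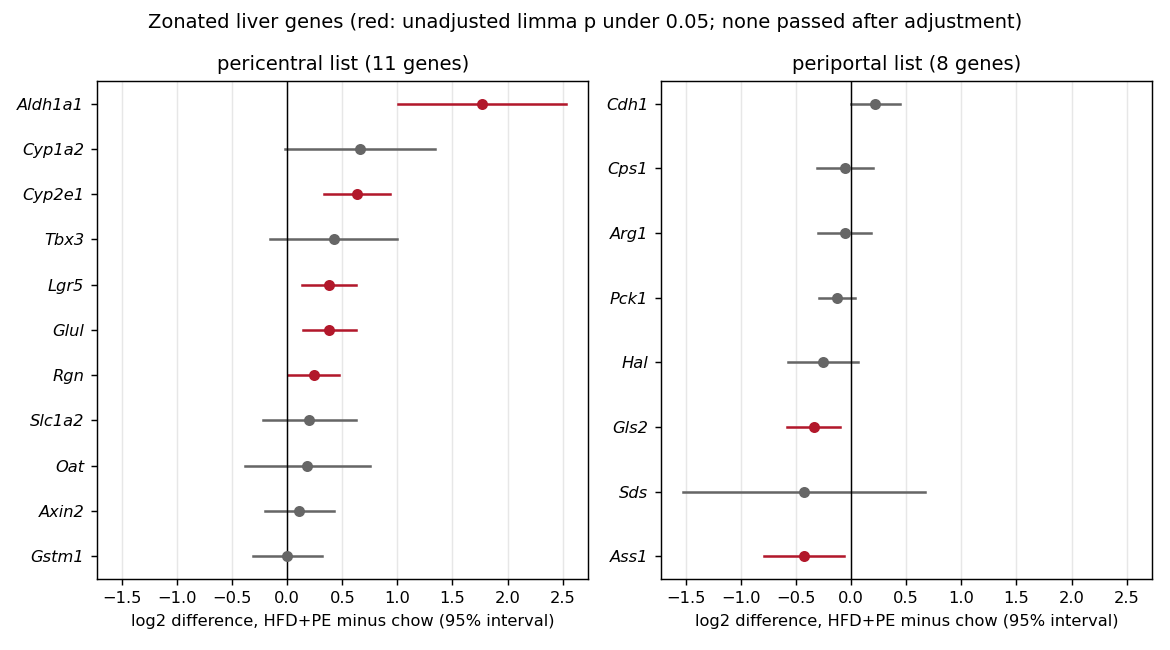
Log2 difference of HFD+PE minus chow for the 11 measured pericentral and 8 periportal genes, with bars for the 95% interval and red for an unadjusted limma p under 0.05. Of the pericentral genes 10 lie above 0, with Aldh1a1 the highest at 1.77, and 7 periportal genes lie below 0.

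The tissue read as liver: 7 hepatocyte markers had levels of 12.56 to 14.96, and their mean per animal ran from 13.69 to 13.83 in chow, 13.57 to 13.79 in HFD and 13.69 to 13.83 in HFD+PE. Markers of Kupffer cells and macrophages moved with the groups. Of 10 measured, 6 in HFD and 8 in HFD+PE were lower than in chow with an unadjusted limma p under 0.05, against 3.57% and 5.14% of all genes lower with such a p, and none was higher with such a p. Cd14 and Lyz2 were each 0.15 higher in HFD+PE than in chow, without such a p. Their mean level ran from 8.36 to 9.09 in chow, 7.72 to 8.55 in HFD and 7.52 to 8.40 in HFD+PE. In whole tissue, fewer cells of a type and less RNA per cell cannot be told apart, and the part of these cells in the P450 differences was not tested. Of the other cell types, at most 1 endothelial, stellate or erythrocyte marker and 2 cholangiocyte markers had such a p in any comparison, and no lymphocyte, adipocyte, pancreas or kidney marker did. The difference between 3′ and 5′ probe sets of Gapdh, a sign of RNA quality, averaged 2.65 in chow, 2.80 in HFD and 2.93 in HFD+PE, with ranges that overlapped. The 12 hybridisation control probe sets averaged 12.35 to 12.92 on 5 arrays (3 chow, 2 HFD+PE) and 11.40 to 11.84 on the other 13 (the low control set), so HFD had no array of the high set.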

How the data were processed

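The authors made the deposited log2 signals of 31099 probe sets with Affymetrix Expression Console and RMA, per the submitters' processing notes (versions not given in the sources used here). Values ran from 2.2 to 15.0 and were rounded to 0.1. From them, 57 control probe sets were left out, and genes were named through the platform annotation (436 probe sets with several symbols and 9780 with none were not used). The brightest probe set per gene by mean over the arrays was kept. limma 3.58.1 in R 4.3.3 (statmod 1.5.0) fitted 1 mean per group over 15 animals, with eBayes at its default settings and p-values of each comparison adjusted by Benjamini-Hochberg across the 14217 genes, with 0.05 as the threshold. Tests were two-sided. Averaging 3 array pairs with 0 probe sets over 2 log2 units apart is an inference from the values that sets n. The sources used here do not say more of how the samples were kept apart, so p-values measure the spread between these samples. Arrays have no read depth: precision is limited by how few animals there are and by the rounding. The members, gene lists and tests were chosen with earlier results of these data known. Values in every animal are given for the brightest member of each subfamily with more than 1 gene, the members with the lowest p per comparison (up to 8 under 0.05, otherwise 3) and the 4 with the largest within-group SD; of the other lists, up to 4 genes with the lowest F test p were named. The alternatives were 18 separate arrays, a replicate block, leaving out each animal, the control set, Gapdh 3′ minus 5′, other probe set rules, a level filter, centring of arrays and another eBayes setting; averaging only HFD 1 and 2 was added after seeing the data. Scripts were tested on simulated data.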

Additional observations from a re-analysis of the deposited data

Results flagged for a closer look

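Within groups of 5 animals, 48 sets of values of the 16 members given in full were searched for a value standing apart from the rest by Dixon's criterion, and 6 were found. Chance alone gives about 1 in 20 groups, but of the 16 members Cyp1a1, Cyp1a2, Cyp3a9 and Cyp3a18 were chosen for a large spread within groups, whether or not another part of the rule also named them, and 3 of the 6 values came from these, so the 6 are not to be set against chance.

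Both Cyp1a genes stood apart in HFD+PE 2: Cyp1a1 read 13.0 against 4.8 to 6.05 in the other animals of the group, and Cyp1a2 read 13.7 against 11.3 to 11.9. In HFD+PE 6 Cyp3a18, a male-predominant steroid hydroxylase, read 10.0 against 11.8 to 12.4. In HFD+PE 1 Cyp2j10 read 5.3 against 4.8 to 4.9. In chow 2 the naphthalene oxidase Cyp2f4 read 9.2 against 9.65 to 9.8, and Cyp3a2 read 13.2 against 13.6 to 13.7. The causes were not tested.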

How the results depend on the processing

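Over 26 alternatives, 1 of them (averaging only HFD 1 and 2) chosen after seeing the data, the number of members past the adjusted limma threshold stayed 0 in all comparisons, except in HFD+PE against chow on 18 separate arrays (1, Cyp2e1), with only HFD 1 and 2 averaged (1, Cyp2e1, 0.57 with adjusted p = 0.0408) and on 18 arrays with a replicate block (2, Cyp2e1 and Cyp2f4, both 0.57 with adjusted p = 0.0427). Same-numbered arrays correlated from -0.305 to 0.189, so the numbers do not pair the animals. The count of members with an unadjusted p under 0.05 was 3 in HFD against chow and ranged from 1 (without chow 6) to 5 (without chow 1) when animals were left out. In HFD+PE against HFD it was 1, and became 4 on 18 arrays, 3 with only HFD 1 and 2 averaged, 5 with the replicate block, 2 with the control set as a covariate, 3 on the low control set, 2 with the mean over probe sets, 2 among genes at or above the median level and 3 with a trended, robust eBayes. Leaving out animals gave 1 to 3, with 2 without chow 2, chow 5, HFD 1-2, HFD+PE 1, HFD+PE 2 or HFD+PE 6 and 3 without HFD 4. The shares of all genes in these alternatives are not given here. The counts, adjusted or not, therefore describe the settings and are not a result about the members. Signs turned for Cyp1a1 in HFD against chow with the control set as a covariate (-0.06), whose fit includes HFD+PE 2. In HFD+PE against HFD they turned for Cyp3a9 on 18 arrays (-0.08), with the block (-0.08) and without HFD 3 (-0.11), HFD 6 (-0.06) or HFD+PE 2 (-0.11), for Cyp1a1 without HFD+PE 2 (-0.13), and for Cyp2j3 (0.06) and Cyp3a18 (0.09) without HFD+PE 6. Leaving out animals moved these differences over -0.13 to 1.92 (Cyp1a1), -0.11 to 0.33 (Cyp3a9), -0.14 to 0.06 (Cyp2j3) and -0.51 to 0.09 (Cyp3a18). The causes were not tested. In HFD+PE against chow Cyp2e1 (0.46 to 0.70), Cyp2f4 (0.40 to 0.67) and Cyp2d4 (-0.61 to -0.35) had an unadjusted limma p under 0.05 in 26 of 26 alternatives, Cyp2a1 in 25, Cyp2a2 in 21 and Cyp2j4 in 20; in HFD against chow, Cyp2e1 in 25, Cyp2a1 in 22 and Cyp3a9 in 18; and in HFD+PE against HFD, Cyp2j4 in 21. A sign was counted as turned only where both differences were at least 0.05 from 0, since values are rounded to 0.1.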
